A study of Mus musculus with 12 samples.

Results

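The change with transplant was compared between genotypes over 12 libraries that are labelled as CD4 T cells. For each gene the log2 change from before to after transplant in WT cells was taken away from the same change in TCF-1 cKO cells. This difference of differences, called the interaction here, is above 0 where a gene moved higher, or fell less, in TCF-1 cKO cells, and below 0 where it moved lower, or rose less. The members are the protein-coding genes whose mean CPM (counts scaled to a common library total) reached 10 in at least 1 of the 4 groups, with olfactory receptor (Olfr) and vomeronasal receptor (Vmn) genes left out. They were 10203 of the 35907 genes matched in the files, and of 20387 protein-coding genes outside those receptor families. All 10203 passed the filter on low counts. Just inside the limit stood Cyp2c29 at 10.01 CPM in its highest group, and just outside it Ampd1 at 9.995 CPM.

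Each of the 4 groups held 3 libraries. TCF-1 cKO Pre-Tx and WT Pre-Tx are spleen cells of donor mice, labelled CD4 T cells and taken before transplant. The paper describes them as CD4+ cells sorted by FACS. TCF-1 cKO Post-Tx and WT Post-Tx are donor cells sorted back from the spleen of lethally irradiated BALB/c recipients at day 7 after T cells were given, told from host cells by H2Kb. In the paper's transplant model recipients also get bone marrow of WT C57BL/6 mice, depleted of T cells. Cells from that marrow carry H2Kb too, so H2Kb alone does not tell them from the given T cells. For the day 7 sort the paper's results name CD3, CD4 and CD8 beside H2Kb. The knockout mice carry Tcf7 flanked by loxP sites on both alleles and a Cre recombinase driven by the Cd4 promoter, WT mice are C57BL/6, and the labels write their genotype TCF-7 cKO. That promoter is active in thymocytes that still express both CD4 and CD8, so both T cell lineages lose the gene. The mice were sex-matched adults. The label names CD4 T cells for every library, the methods name CD8 T cells for the day 7 sort, and the design text names both. The levels of Cd4 and Cd8a are given below, and which cells were sorted was not tested. Pre-Tx and Post-Tx cells differ in host, day, sort and activation at once, and these cannot be told apart. The titles call the libraries biological replicates, but do not say which mouse or mice each one holds, so p values measure the spread between these libraries.

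TCF-1 is a DNA-binding protein of the HMG box family. It commits progenitors to the T cell lineage, and in mature cells it is known for keeping naive, memory and stem-like T cells in their state and for guiding the follicular helper fate. It can act with beta-catenin, the transducer of the Wnt pathway, or without it. Donor T cells in a mismatched host meet host antigens, divide and become effector cells, the process that underlies graft-versus-host disease.

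The targeted gene was read first. Tcf7 stood at 188, 148 and 193 normalized CPM in the libraries of TCF-1 cKO Pre-Tx, where normalized CPM also use the TMM factors. It stood at 207, 201 and 124 in WT Pre-Tx, at 91.6, 107 and 113 in TCF-1 cKO Post-Tx and at 158, 155 and 182 in WT Post-Tx. The genotypes overlapped before transplant, and after it all 3 TCF-1 cKO libraries were below the WT libraries. Its interaction was -0.66 (SE, the standard error, 0.32, and adjusted p = 0.12 by the quasi-likelihood test of edgeR with Benjamini-Hochberg adjustment). Estimated counts are summed over whole transcripts, so the loss of the floxed part alone need not show in them. Whether that part was lost was not tested, and directions rest on the genotype labels. The pan T cell sum, given below, was lower in TCF-1 cKO than in WT before transplant, and its part in the Tcf7 level was not tested.

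Library totals ran from 17103415 to 49486745 estimated counts. The summed CPM of 10 pan T cell genes averaged 1750.0 ± 121 in TCF-1 cKO Pre-Tx, 3093 ± 304 in WT Pre-Tx, 5620.0 ± 164 in TCF-1 cKO Post-Tx and 7645 ± 894 in WT Post-Tx (SD, n = 3 each). The sum of 21 B cell genes was 36450.0 ± 1419.9 and 36018 ± 1997 CPM in the 2 Pre-Tx groups against 1465 ± 144 and 1091 ± 80.7 CPM in the 2 Post-Tx groups, in the order TCF-1 cKO and WT, and no B cell gene was at 0 in all libraries of a group. Olfactory and vomeronasal receptor genes, which T cells are not known to use, took 2233 ± 638 CPM in TCF-1 cKO Pre-Tx, 8009 ± 3779 in WT Pre-Tx, 12605 ± 6694 in TCF-1 cKO Post-Tx and 3130.3 ± 1882 in WT Post-Tx. This receptor signal was thus higher in WT before transplant and higher in TCF-1 cKO after it, and the libraries of the 2 genotypes did not overlap at either stage. In both Pre-Tx groups the B cell sum, over 21 genes, was above the pan T cell sum, over 10, and in both Post-Tx groups below it. B cell RNA thus stood beside T cell RNA before transplant, and a change with transplant need not be one within T cells. In bulk RNA, fewer cells of a type and less RNA per cell cannot be told apart.

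Of the 10203 members, 2994 had an interaction at an adjusted p under 0.05 by edgeR's quasi-likelihood test with Benjamini-Hochberg adjustment over the 21434 genes tested, which is 29.3% against 28.5% of all genes tested. Among the members, 2437 (23.9%) were below 0 and 557 (5.46%) above 0, against 11.7% and 16.8% of all genes tested. The median interaction of the members was -0.67 (quartiles -1.28 and -0.06), and that of all genes tested was 0.37. Of the 2437 members below 0, 1798 had a fitted change downward in TCF-1 cKO and upward in WT, 387 upward in both and 252 downward in both. For 2353 of them the TCF-1 cKO mean was the higher one before transplant and the lower one after it. Their highest group was TCF-1 cKO Pre-Tx for 1362 and WT Post-Tx for 1049. Of the 557 above 0, 498 had a fitted change upward in TCF-1 cKO and downward in WT, and for 547 the TCF-1 cKO mean was the lower one before transplant and the higher one after it. These counts rest on the signs of group means and are no separate result. The interaction is the genotype difference after transplant less the one before, so a call by itself favours such patterns. Over all members the median genotype difference was 0.31 before transplant and -0.37 after it. Tested at each stage, the genotypes differed at an adjusted p under 0.05 in 2380 members (23.3%) before transplant and 258 (2.53%) after it by edgeR's quasi-likelihood test, so for most called members no difference after transplant passed.

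**Figure D1:**
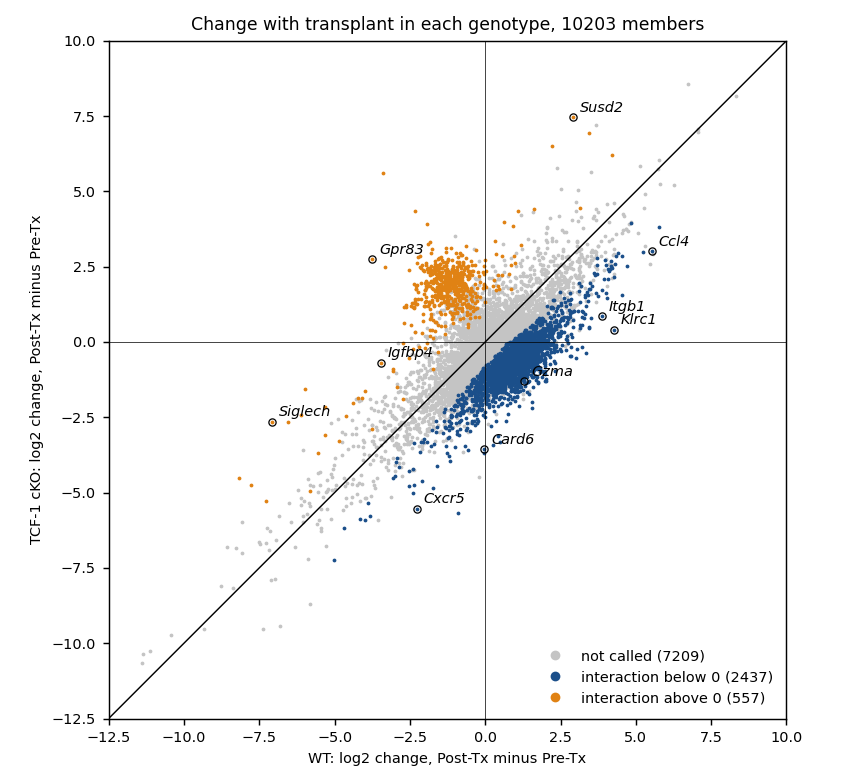
Each point is 1 of the 10203 members, with its log2 change from Pre-Tx to Post-Tx in WT on the x axis and in TCF-1 cKO on the y axis. The line marks equal change, the 2437 members called below 0 lie under it, and the 557 called above 0 lie over it, most of them in a cloud that is up in TCF-1 cKO and down in WT.

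The members above 0 moved as the receptor genes did. Their median log2 change was 1.86 in TCF-1 cKO against -1.24 in WT, and the 980 olfactory and vomeronasal receptor genes tested had medians of 2.11 and -1.46. For the members below 0 the medians were -0.64 and 1.00. Members above 0 were mostly low, with a median of 20.9 CPM in the highest group, and 319 of the 557 peaked at 10 to 25 CPM. The members below 0 had a median of 83.3 CPM. When the log2 CPM of the receptor genes was added to the model, 0 members were called by edgeR, with 745 at an unadjusted p under 0.05. DESeq2 with the same term called 19, of which 16 were below 0. That term itself has an interaction of 3.81 over the 4 group means, and standard errors widened, for Cxcr5 from 0.31 to 0.53. The estimates of many named genes stayed near their first value, -3.00 for Cxcr5 and -3.36 for Chd9, while others shrank or turned.

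The scale set the balance of directions. TMM over all genes tested left the median member at -0.67, and the genes tested that were neither members nor receptor genes had a median of 2.76. With the TMM factors taken from the members alone, a setting chosen after the data were seen and called member scaling here, the median was -0.01, and 990 members (9.70%) were called above 0 and 799 (7.83%) below. Upper-quartile scaling gave 988 and 726, RLE scaling 490 and 2936, and scaling to the pan T cell genes 437 and 2425. Under the first setting and 3 others (upper quartile, RLE and member scaling), 490 of the 557 members above 0 and 717 of the 2437 below 0 were called the same way. Of these, 278 and 713 were also called with each of the 12 libraries left out in turn. Lists below are given under both scalings, and a gene's interaction can be read against the median of -0.67 and a list's count against these shares of all members.

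**Figure D2:**
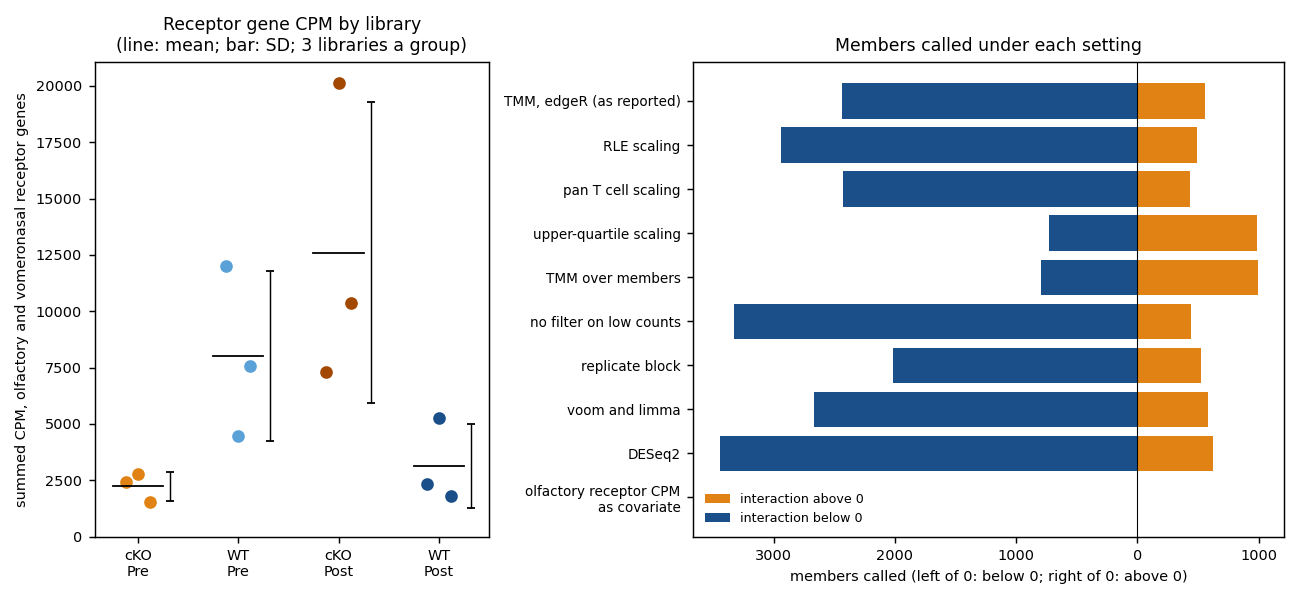
Left, the summed CPM of olfactory and vomeronasal receptor genes in each library, with the group mean and SD of 3 libraries, from 2233 CPM in TCF-1 cKO Pre-Tx to 12605 CPM in TCF-1 cKO Post-Tx. Right, the number of members called below 0 (bars to the left) and above 0 (bars to the right) under 10 settings, from 2994 in all as reported to 0 with the receptor term in the model.

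The clearest single member was Cxcr5, the chemokine receptor that takes follicular helper T cells and B cells into B cell follicles. It stood at 432, 499 and 464 normalized CPM in TCF-1 cKO Pre-Tx against 331, 311 and 280.1 in WT Pre-Tx, and at 10.8, 8.40 and 11.1 in TCF-1 cKO Post-Tx and 81.1, 57.4 and 51.4 in WT Post-Tx. Every TCF-1 cKO library was above every WT library before transplant and below every one after it. The log2 change with transplant was -5.53 in TCF-1 cKO against -2.28 in WT, and the interaction was -3.25 (SE 0.31, edgeR quasi-likelihood adjusted p = 3.20e-05). Since B cells carry Cxcr5 too, the B cell sums above are lower after transplant together with it, and their part in the result was not tested. Btla, an inhibitory receptor of T and B cells, had an interaction of -3.13, and Slamf6, a SLAM family receptor of naive and follicular helper cells, -2.03. Slamf6 stood at 111, 88.9 and 147 normalized CPM in TCF-1 cKO Post-Tx against 265, 300.4 and 314 in WT Post-Tx, which did not overlap. Bcl6, the repressor that defines follicular helper cells, had -2.19. Of the 14 members among follicular helper genes, 7 were called below 0 and none above, with a median of -1.42, and 5 were called below 0 with member scaling (median -0.81).

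Genes of cytotoxic granules and effector cells had the lowest median of any list, -1.76 over 20 members, with 10 below 0 and none above. With member scaling 9 were below 0 and the median was -1.14. Gzma, a granule protease, stood at 262, 312 and 335 normalized CPM for TCF-1 cKO Pre-Tx, 113, 114 and 67.2 for WT Pre-Tx, 140.3, 76.6 and 154 for TCF-1 cKO Post-Tx and 142, 236 and 339 in WT Post-Tx. It was thus higher in every TCF-1 cKO library before transplant, and the genotypes overlapped after it. Its log2 change was -1.29 in TCF-1 cKO and 1.28 in WT, for an interaction of -2.58 (SE 0.45). Prf1, the pore-forming perforin, had an interaction of -2.23, with 68.3, 58.2 and 36.6 normalized CPM in TCF-1 cKO Post-Tx against 174, 129.8 and 173 in WT Post-Tx. Serpinb6b, an inhibitor of granule proteases, had -2.25. Ccl5, a chemokine of activated T and NK cells, stood at 358, 461 and 574 and 323, 318 and 444 before transplant and at 143, 104 and 119 and 450.2, 250.2 and 458 after it, in TCF-1 cKO and WT, and had -2.03 (SE 0.36). Of 9 members among NK cell markers 3 were below 0 under both scalings, Klrb1c among these with -2.40, and 6 were not called under TMM. The summed CPM of the 10 listed genes was 822 ± 23.9 and 508 ± 82.8 before transplant and 1517 ± 109 and 1946 ± 90.5 after it, in TCF-1 cKO and WT. Gzma stands on both lists, none of the NK genes but 1 in WT Post-Tx was at 0 in all libraries of a group, and the part of NK cells in the result was not tested.

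Chemokines, their receptors and adhesion molecules had 12 of 26 members below 0 and none above (median -0.91), and 9 below 0 with member scaling (median -0.25). Itgb1, the beta 1 integrin chain, stood at 324, 282 and 193 normalized CPM in TCF-1 cKO Pre-Tx against 42.7, 73.4 and 46.0 in WT Pre-Tx. After transplant it stood at 542, 325 and 586 and 548, 793 and 1015. The genotypes were apart before transplant and overlapped after it, and the interaction was -3.00 (SE 0.41). Ccl4, a chemokine of activated T and NK cells, stood at 22.3, 18.3 and 11.0 in TCF-1 cKO Pre-Tx against 7.06, 9.20 and 2.65 in WT Pre-Tx, and at 175, 149.6 and 89.9 and 338, 194 and 338 after transplant, so it was higher after transplant in every library of both genotypes, with log2 changes of 3.01 in TCF-1 cKO against 5.52 in WT and an interaction of -2.52. Xcl1, a chemokine for cross-presenting dendritic cells, had -3.57, and Ccr2, a receptor for inflammatory chemokines that monocytes also carry, -2.19. Ccl3 had -0.87 (edgeR quasi-likelihood adjusted p = 0.429) and Cxcr3, the receptor of interferon-induced chemokines, -0.80 (adjusted p = 0.0508 from the same test), neither of which passed. Ccl3 passed without TCF-1 cKO Pre-Tx replicate 2 (-1.44), and Cxcr3 in 4 of the 12 fits that left out a library.

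**Figure D3:**
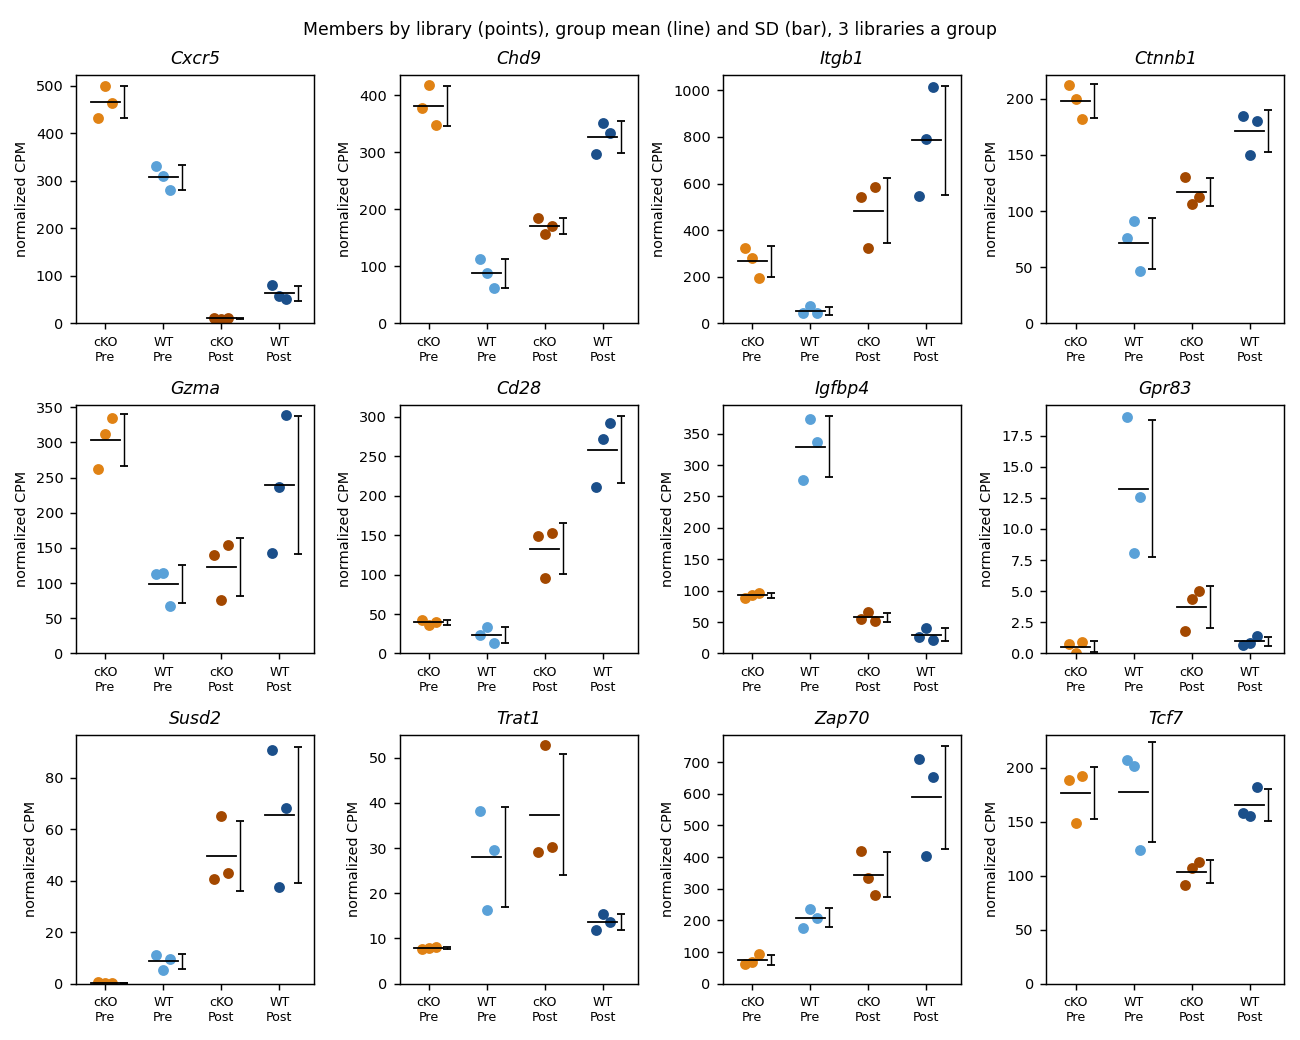
Normalized CPM of 12 genes in each of the 12 libraries, with points for libraries and a line and bar for the mean and SD of each group of 3. Cxcr5, Chd9 and Ctnnb1 are higher in TCF-1 cKO before transplant and lower after it, Igfbp4, Gpr83 and Trat1 the reverse, and Tcf7 overlaps between genotypes before transplant.

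The T cell receptor complex and its proximal signaling genes did not move as 1 group. Of 26 members, 2 were above 0 and 9 below under TMM (median -0.46), and 10 above and 2 below with member scaling (median 0.18). Zap70, the kinase that binds the phosphorylated receptor, stood at 60.9, 68.8 and 93.2 normalized CPM in TCF-1 cKO Pre-Tx against 177, 237 and 209 in WT Pre-Tx, and at 419, 335 and 280.02 and 709, 404 and 653 after transplant. WT was higher at both stages, without overlap before transplant, and the interaction was 0.71 (SE 0.34, edgeR quasi-likelihood adjusted p = 0.121) and 1.38 with member scaling (adjusted p = 0.00531 from the same test). Lat, the membrane adaptor, had 0.63, Lck, the kinase bound to CD4 and CD8, 0.18, and Cd3e, a signaling chain of the receptor, 0.24. None of these 3 passed under TMM, and with member scaling they were 1.32, 0.83 and 0.92 and all passed. Cd4 itself had -0.52 and Jak3 -0.53, and neither passed under either scaling. Without WT Pre-Tx replicate 2, Cd4 had -1.004 and passed (edgeR quasi-likelihood adjusted p = 0.0177). Before transplant the pan T cell sum was lower in TCF-1 cKO, as given above, and its part in these values was not tested.

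Members of the same list that were below 0 include costimulatory and activation receptors. Cd28, the main costimulatory receptor, stood at 42.5, 36.0 and 40.3 normalized CPM in TCF-1 cKO Pre-Tx against 23.0, 33.7 and 13.6 in WT Pre-Tx, and at 149, 95.5 and 153 and 211, 272 and 292 after transplant. The TCF-1 cKO libraries were above WT before transplant and below WT after it, and the interaction was -1.72 (SE 0.41, edgeR quasi-likelihood adjusted p = 0.00772). Cd69, an early activation receptor that retains cells in tissue, had -3.04, with log2 changes of -0.18 in TCF-1 cKO and 2.86 in WT. Cd2, an adhesion receptor, had -1.18 and was not called with member scaling (-0.53). Among 12 costimulatory receptors 4 were below 0, with Slamf1 at -1.44 and Cd27 at -1.17, and 1 with member scaling. Trat1, an adaptor that stabilizes the receptor complex at the surface, was above 0 at 3.29 (SE 0.54). With the olfactory and vomeronasal receptor term in the model Trat1 had 1.44 (SE 0.85). It stood at 7.64, 7.80 and 8.11 for TCF-1 cKO Pre-Tx, 38.2, 16.3 and 29.5 for WT Pre-Tx, 29.1, 52.8 and 30.2 for TCF-1 cKO Post-Tx and 11.9, 15.4 and 13.7 in WT Post-Tx.

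Naive and stem-like T cell genes had 12 of 20 members below 0 and 2 above, Igfbp4 and Dapl1 (2.36), and 5 and 2 with member scaling. Foxp1, a factor of T cell quiescence, stood at 362, 333 and 333 normalized CPM in TCF-1 cKO Pre-Tx against 154, 168 and 109.8 in WT Pre-Tx, and at 42.2, 36.2 and 37.2 and 65.5, 53.0 and 68.4 after transplant, for an interaction of -1.94. Ets1, a factor of lymphocyte development, had -2.21 with log2 changes of -0.93 in TCF-1 cKO and 1.29 in WT. Igfbp4, a binding protein of insulin-like growth factors that naive T cells express, went the other way. It stood at 88.6, 93.5 and 96.2 in TCF-1 cKO Pre-Tx against 277, 374 and 337 in WT Pre-Tx, and at 55.4, 65.4 and 52.1 and 26.2, 41.2 and 22.0 after transplant, so WT was higher before transplant and TCF-1 cKO after it, without overlap at either stage. Its interaction was 2.78 (SE 0.35, edgeR quasi-likelihood adjusted p = 4.11e-04).

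Among 15 inhibitory receptors and TOX factors 4 were below 0, a share near the 23.9% of all members, with a median of -0.68 near that of all members too. They were Btla, Cd200 at -1.89, Havcr2, which encodes TIM-3, at -1.65, and Pdcd1, which encodes PD-1, at -0.89. Btla and Cd200 were called with member scaling, and Havcr2 and Pdcd1 were not. Of 17 effector and helper lineage factors 9 were below 0, and 2 with member scaling, Irf4 and Stat4. Irf4, a factor induced by T cell receptor signals, stood at 97.9, 104 and 87.4 normalized CPM in TCF-1 cKO Pre-Tx against 33.5, 44.9 and 21.4 in WT Pre-Tx, and at 22.8, 14.8 and 13.8 and 37.9, 22.9 and 38.8 after transplant, with an interaction of -2.49. Stat4, the transducer of interleukin 12 signals, had -2.18, Batf -1.30 and Bhlhe40 -1.25. Of 13 cytokine genes, Il4, the cytokine of type 2 helper cells, was above 0 at 3.46 and Tnfsf8 below at -1.78, and 11 were not called. Il4 stood at 0.0524, 0.212 and 0 in TCF-1 cKO Pre-Tx against 1.41, 0.41 and 0.801 in WT Pre-Tx, and at 8.04, 11.9 and 15.3 and 9.998, 7.77 and 11.1 after transplant, so its interaction rests on very few reads before transplant. Cytokine receptors and JAK kinases had 10 of 23 members below 0 and 3 with member scaling, Ifngr1 at -1.67, Ifnar1 at -1.74 and Jak1 at -1.97 under TMM. Il2rg, the common gamma chain, had -0.98 and was not called with member scaling.

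In the Wnt and beta-catenin pathway 4 of 27 members were below 0 and 1 above, and 2 and 3 with member scaling. Ctnnb1, which encodes beta-catenin, stood at 212, 199.96 and 182 normalized CPM in TCF-1 cKO Pre-Tx against 75.6, 91.1 and 46.8 in WT Pre-Tx, and at 131, 106 and 113 and 185, 150.3 and 180.2 after transplant. The genotypes did not overlap at either stage and changed places, with log2 changes of -0.76 in TCF-1 cKO against 1.27 in WT and an interaction of -2.04 (SE 0.34, edgeR quasi-likelihood adjusted p = 0.00173). Csnk1a1, a kinase of the complex that marks beta-catenin for destruction, had -1.79, and Myc, a target of the pathway, -1.48. Wnt4, a ligand, was above 0 at 3.64. It stood at 4.35, 5.47 and 2.67 and 14.6, 3.63 and 15.2 before transplant, where the genotypes overlapped, and at 21.0, 48.6 and 22.3 and 5.37, 11.4 and 2.90 after it, in TCF-1 cKO and WT. With the receptor term in the model the interaction of Wnt4 was -0.65 (SE 1.03). Slit2, a guidance ligand, was no member, since its highest group was below 10 CPM, and it had 3.69 (SE 1.06).

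Among 37 cell death genes 17 were below 0 and 1 above, the death receptor gene Tnfrsf10b at 2.95, and 7 and 1 with member scaling. Casp1, the inflammasome protease, had -2.63, Casp8, the initiator protease of death receptors, -1.88, Birc3, an inhibitor of apoptosis, -1.84 and Bcl2a1b, a survival protein of the BCL2 family, -1.66. Casp8 stood at 107, 132 and 167 normalized CPM for TCF-1 cKO Pre-Tx, 37.6, 56.4 and 66.2 for WT Pre-Tx, 163, 118 and 146 for TCF-1 cKO Post-Tx and 214, 175 and 233 in WT Post-Tx. Genes that promote and genes that restrain death were thus both among the members below 0. Interferon-stimulated genes had 19 of 38 below 0 and 1 above, and 7 and 1 with member scaling, with Trim30a at -2.37, Ifit3 at -2.26 and Gbp7, a guanylate-binding protein, at -1.74. Ifitm1, an interferon-induced membrane protein, had -1.49. The 1 above 0 was Gbp5, another guanylate-binding protein, at 2.96, which stood at 11.0, 19.2 and 20.4 for TCF-1 cKO Pre-Tx, 52.7, 29.2 and 52.5 for WT Pre-Tx, 60.2, 117 and 64.5 for TCF-1 cKO Post-Tx and 19.9, 40.6 and 22.3 in WT Post-Tx. With the olfactory and vomeronasal receptor term in the model Gbp5 had 0.88 (SE 0.83). Of 24 NF-kB pathway members 12 were below 0, and 1 with member scaling, Nfkb1, a subunit of the factor, at -1.94 under TMM. Ikbkb, a kinase that releases NF-kB, had -1.48, Tnfaip3, a brake on the pathway, -1.50 and Bcl10, a link from antigen receptors, -1.45. Of 22 immediate early genes 7 were below 0 and 4 with member scaling, Btg2 at -1.56, Klf6 at -1.61, Nfkbiz at -1.88 and Zfp36l2 at -2.22 under TMM.

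Chaperones and genes of the unfolded protein response had 17 of 27 members below 0 and none above, and 10 with member scaling (medians -1.28 and -0.66). Hspa9, a mitochondrial chaperone, stood at 175, 203 and 197 normalized CPM in TCF-1 cKO Pre-Tx against 65.5, 84.3 and 46.0 in WT Pre-Tx, and at 104, 98.5 and 95.4 and 118, 124 and 156 after transplant, without overlap at either stage, for an interaction of -1.97. Dnajc3, an inhibitor of the stress kinase PERK, had -1.69, Hsp90aa1, the stress-inducible HSP90, -1.87 and Hsp90ab1, its constitutive partner, -1.38. In cholesterol and fatty acid synthesis 3 of 23 were below 0 under both scalings, among them Acly, which makes cytosolic acetyl-CoA, at -2.01 and Scd2, a fatty acid desaturase, at -1.80. Of 20 genes of glycolysis 2 were below 0, the lactate transporter Slc16a1 at -1.87 and Pfkp at -1.03, and none with member scaling.

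The directions of housekeeping groups changed with the scale, and their shares below 0 under TMM were near or under the 23.9% of all members, mitochondrially encoded genes apart. Of 79 cytosolic ribosomal protein genes 13 were below 0 and none above under TMM, among them Rpl21 at -1.53, Rpl4 at -1.50, Rpl7 at -1.50 and Rpl30 at -1.38, while 5 were below 0 and 11 above with member scaling. In 79 of 79 the TCF-1 cKO mean after transplant was under the WT mean (median log2 difference -0.76 under TMM). Over all members that median was -0.37 (quartiles -0.63 and 0.03). The TCF-1 cKO mean was also the lower one in 47 of 47 nuclear and 13 of 13 mitochondrially encoded genes of the respiratory chain. Of 47 nuclear genes of the respiratory chain 7 were below 0 and none above under TMM, with Uqcrc2 at -1.42, Sdha at -1.39, Uqcrfs1 at -1.18 and Atp5j at -1.16, and 2 below and 8 above with member scaling. Among the 13 mitochondrially encoded genes 4 were below 0, mt-Cytb at -1.84, mt-Nd2 at -1.76, mt-Nd4 at -1.53 and mt-Nd4l at -1.37, and none with member scaling. Of 40 cell cycle genes 10 were below 0 and none above, a share near the 23.9% of all members, with Aurkb, a mitotic kinase, at -1.81, Mki67, the proliferation marker, at -1.46, Mcm6, a subunit of the replicative helicase, at -1.39 and Ccnd2 at -1.18, against 1 below and 3 above with member scaling. Mki67 stood at 21.4, 36.0 and 40.9 normalized CPM in TCF-1 cKO Pre-Tx against 12.5, 8.73 and 15.1 in WT Pre-Tx, and at 237, 218 and 300.4 and 302, 211 and 253 after transplant, where the genotypes overlapped.

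**Figure D4:**
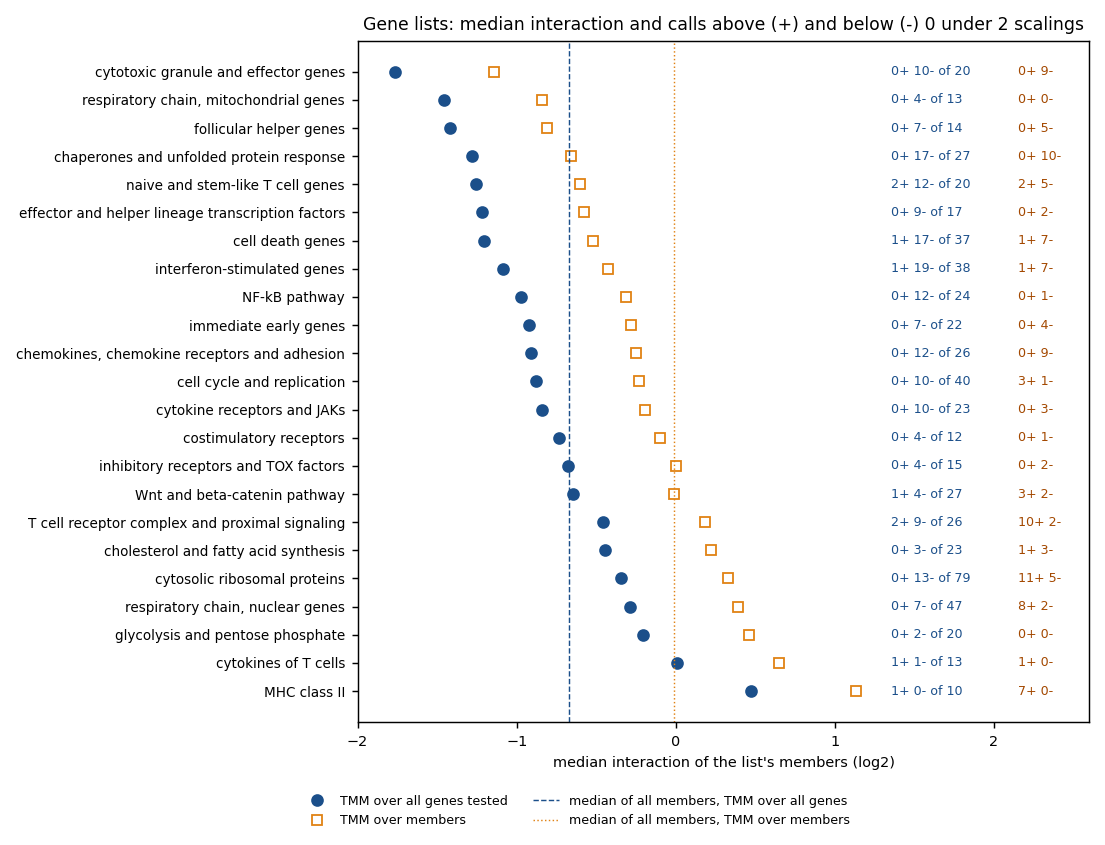
Median interaction (log2, x axis) of the members of 23 gene lists under TMM over all genes tested (filled circles) and over members (open squares), with the numbers called above and below 0 at the right and dashed and dotted lines at the median of all members, -0.67 and -0.01. Cytotoxic genes stand lowest (-1.76 and -1.14) and MHC class II genes highest (0.48 and 1.13).

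The called members with the smallest p below 0, after Cxcr5, are widely expressed genes. Chd9, a chromatin remodeler, stood at 378, 419 and 349 normalized CPM in TCF-1 cKO Pre-Tx against 114, 88.1 and 62.3 in WT Pre-Tx, and at 186, 156 and 170.2 and 297, 352 and 335 after transplant. The 2 genotypes changed places without overlap, and the interaction was -3.06 (SE 0.32, edgeR quasi-likelihood adjusted p = 4.70e-05). Miga1, a protein of mitochondrial fusion, had -2.94, Cep85, a centrosomal protein, -3.10, Cpsf2, a subunit of the complex that cleaves pre-mRNA before polyadenylation, -3.08 and Cnbd2 -3.71. The largest in size were Mcoln3, a cation channel of endosomes and lysosomes, at -4.76, Klrc1, which encodes the receptor NKG2A, at -3.85, Amd1, an enzyme of polyamine synthesis, at -3.83, Srp54b at -3.71, Parp16 at -3.69, Ralgps1 at -3.56, Mettl18 at -3.54 and Card6 at -3.51. Klrc1 stood at 13.8, 17.9 and 33.6 normalized CPM in TCF-1 cKO Post-Tx against 41.9, 92.1 and 135 in WT Post-Tx, without overlap, while before transplant the genotypes overlapped. Mcoln3 stood at 13.8, 12.3 and 33.1 in TCF-1 cKO Pre-Tx, at most 4.57 in the other 9 libraries, and it was called in 3 of 12 fits that left out a library. Mcoln3 (adjusted p = 0.0586) and Parp16 (adjusted p = 0.0502) were not called with member scaling by edgeR's quasi-likelihood test. Amd1, Srp54b, Bcl2a1b and Ifit3 have near-identical copies between which kallisto may have split reads, so their values are uncertain.

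Of the members above 0, Gpr83, Susd2, Ltbp2 and Il4 were among those under 1 normalized CPM in every library of TCF-1 cKO Pre-Tx. Gpr83, a receptor that regulatory T cells express, stood at 0.733, 0.0424 and 0.891 normalized CPM in TCF-1 cKO Pre-Tx against 19.0, 8.08 and 12.6 in WT Pre-Tx, and at 1.78, 4.41 and 4.99 and 0.683, 0.875 and 1.39 after transplant. WT was higher in every library before transplant and lower in every one after it, and the interaction was 6.49 (SE 1.16) and 5.97 with the receptor term in the model (SE 2.40). Susd2, a membrane protein, stood at 0.471, 0.127 and 0.247 and 11.1, 5.39 and 9.68 before transplant and at 40.6, 65.1 and 42.8 and 90.6, 37.7 and 68.2 after it, in TCF-1 cKO and WT. The genotypes differed without overlap before transplant and overlapped after it, and the interaction was 4.56 (SE 0.64). Fitted values against a group this low depend on the prior count and are no bound.

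The other members above 0 with the largest size were Sh3pxd2b, an adaptor of invasive cell protrusions, at 6.70, Zscan2 at 5.85, Ltbp2, a protein of the extracellular matrix, at 5.79, Triml1 at 5.16, Syt17 at 5.16, Kcnma1, a calcium-activated potassium channel, at 5.05, Lrrc3 at 5.01, Tmem179 at 4.90 and Zfp488 at 4.89. With the receptor term in the model Sh3pxd2b had 2.43, Ltbp2 2.44, Triml1 1.62, Syt17 1.39, Kcnma1 3.27, Lrrc3 -0.41 and Tmem179 0.83, so each of these was over 1.5 times smaller or had turned. Zfp488 stood at 23.1, 21.5 and 18.3 normalized CPM for TCF-1 cKO Pre-Tx, 222, 64.9 and 139.5 for WT Pre-Tx, 79.8, 198 and 106 for TCF-1 cKO Post-Tx and 21.7, 50.01 and 16.3 in WT Post-Tx. The libraries with the most receptor gene CPM, replicate 1 of WT Pre-Tx and replicate 2 of TCF-1 cKO Post-Tx, were also the highest of their groups for Zfp488, and with the receptor term its interaction was 1.05 (SE 0.55). Zscan2 stood at 5.09, 54.8 and 3.08 in TCF-1 cKO Post-Tx, so 1 library carries its mean, and with the receptor term its estimate turned to -1.96. Those of smallest p were Tmem72 at 3.53, Igfbp4, Slfn3, a Schlafen protein of lymphocytes, at 4.27, Susd2, Mib1, a ubiquitin ligase for Notch ligands, at 3.64 and Zfp697 at 3.73. With the receptor term Tmem72 had 1.72, Slfn3 1.55, Mib1 1.73 and Zfp697 1.31, against 2.17 for Igfbp4 and 3.95 for Susd2. Tmem72 stood at 87.7, 53.2 and 61.6 and 427, 217 and 356 before transplant and at 116, 196 and 171 and 67.8, 85.3 and 54.3 after it, in TCF-1 cKO and WT, without overlap at either stage.

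Markers of other cells were examined beside these results, and genes of this paragraph were named after their values were seen. MHC class II genes, which B cells and other antigen-presenting cells express, had 1 of 10 members above 0 under TMM, H2-Ab1 at 0.85, and 7 with member scaling (medians 0.48 and 1.13). H2-Ab1 stood at 10591, 10951 and 13609.5 normalized CPM in TCF-1 cKO Pre-Tx against 13241, 17758 and 17068 in WT Pre-Tx, and at 419.99, 412 and 299 and 235, 258 and 364 after transplant. The log2 change of Cd79a, a chain of the B cell receptor, was -9.74 in TCF-1 cKO against -10.43 in WT. Of 21 B cell markers 4 were below 0 and none above, among them Pou2af1 at -2.22, Btk at -2.24 and Cd22 at -1.46, while 4 were above 0 and 2 below with member scaling (medians -0.17 and 0.52). Mrc1, a receptor of macrophages, had -2.94, with 64.3, 46.3 and 62.7 in TCF-1 cKO Pre-Tx against 9.45, 7.38 and 5.49 in WT Pre-Tx. Its means after transplant were 48.1 in TCF-1 cKO and 47.7 in WT. Of 18 macrophage and monocyte markers 5 were below 0 and 13 not called, and 1 was above and 2 below with member scaling (medians -0.37 and 0.32). Their summed CPM was 4962 ± 418 and 4673 ± 549 before transplant and 3719 ± 194 and 2458 ± 551 after it, in TCF-1 cKO and WT. Siglech, a marker of plasmacytoid dendritic cells, was above 0 at 4.45, with 2.01, 3.32 and 3.41 after transplant in TCF-1 cKO and 0.418, 0.404 and 0.227 in WT. Before transplant its means were 18.2 and 48.5, and the libraries overlapped. Of 7 dendritic cell members 6 were not called (median -0.245). The summed CPM of the 9 listed genes was 210 ± 11.3 and 218 ± 27.1 before transplant and 134 ± 4.15 and 125 ± 22.9 after it, in TCF-1 cKO and WT. Cd8a, the coreceptor of CD8 T cells, stood at 83.5, 77.7 and 96.4 and 173, 191 and 144 before transplant, in TCF-1 cKO and WT. After it Cd8a stood at 12.9, 9.23 and 7.94 and 5.04, 6.36 and 1.19. Its interaction was 2.24, with log2 changes of -3.10 in TCF-1 cKO and -5.33 in WT. Cd4, named above, stood at 86.9, 71.2 and 102 and 93.2, 174 and 76.1 normalized CPM before transplant, in TCF-1 cKO and WT. After it Cd4 stood at 686, 541 and 664 and 1237, 996 and 1333. Cd4 was thus higher and Cd8a lower after transplant in every library of both genotypes. Cd8a RNA was present beside Cd4 RNA in every Pre-Tx library. Hbb-bs, a globin gene of red cells, had 2.21, and the summed erythroid CPM was 10152 ± 5342 and 16883 ± 8216 before transplant and 3512 ± 2099.8 and 997 ± 430.3 after it. Of the pan T cell genes Cd6 was above 0 at 0.89, and Cd3d had 0.29, Cd3g -0.71, Cd5 0.33 and Cd247 -0.42, and these 4 did not pass under TMM. With member scaling 7 of the 10 were above 0 and none below (medians 0.27 and 0.94), Cd3d at 0.97 and Cd5 at 0.99 among them. Without WT Pre-Tx replicate 2 or WT Post-Tx replicate 2, Cd3g passed under TMM at -0.99 and -0.88. The part of these cells in the interaction of the other members was not tested.

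Transcript length and level moved with the interaction. The median fell from -0.23 over 713 members with a mean transcript length under 1000 bases to -0.88 over 2459 members of 4000 bases or more. By level it was -0.29 at 10 to 25 CPM in the highest group, over 2594 members, -0.83 at 50 to 100 CPM and -0.65 at 200 CPM or more. Calls below 0 made up 152 of 2594 members in the lowest level class and 448 of 1207 in the highest.

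TCF-1 and LEF-1 bind DNA through the motif CTTTGAT, so promoters were searched for it on both strands in the 250 bases before each start in RefSeq's table for GRCm38.p6. Of 32851 promoters, 3.21% held the motif. It was found in 3.04% of 493 promoters of members above 0, 1.72% of 2503 promoters of members below 0 and 2.57% of 7306 promoters of members not called. Of the members called the same way under 4 scalings, it was in 3.48% of 431 promoters for those above 0 and 1.49% of 738 for those below. Among the named genes 2 held it, the T cell receptor genes Trat1, which was called, and Cd3d, which was not. Their windows are shown because both encode parts or partners of the same receptor and differ in their interaction (3.29 and 0.29), with the motif or its reverse complement in capitals and each strand written 5′ to 3′ toward the gene's start. A match is a description and no evidence of binding.
Trat1, chr16:48772063-48772312, minus strand, motif beginning 220 bases before the start: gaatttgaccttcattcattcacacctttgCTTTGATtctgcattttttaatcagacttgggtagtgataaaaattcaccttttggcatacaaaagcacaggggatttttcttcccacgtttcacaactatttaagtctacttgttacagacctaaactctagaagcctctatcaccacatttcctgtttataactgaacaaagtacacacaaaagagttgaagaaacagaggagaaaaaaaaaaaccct
Cd3d, chr9:44981536-44981785, plus strand, reverse complement beginning 55 bases before the start: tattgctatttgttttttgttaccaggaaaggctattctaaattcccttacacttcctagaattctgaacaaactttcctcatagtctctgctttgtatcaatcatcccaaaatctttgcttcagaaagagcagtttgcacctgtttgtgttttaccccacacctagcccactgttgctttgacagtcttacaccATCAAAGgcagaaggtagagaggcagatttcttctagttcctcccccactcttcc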

How the data were processed

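RNA was sequenced from 12 libraries, 3 for each of 4 groups. cDNA was made with the SMARTseq HT kit and libraries with Nextera XT, and kallisto 0.46.2 pseudoaligned the paired reads. The deposited files hold the estimated count of each of 117497 transcripts, with no normalization by the authors, who then used limma. The labels name mm9, and the set of transcripts is not named. Of the transcripts, 116428 were matched without version number to GENCODE M21 on GRCm38, whose gene symbols are used here. The unmatched 1069 took 0.282% to 0.386% of the counts. Estimated counts were summed per gene and rounded.

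In edgeR 4.0.16 (R 4.3.3), genes were filtered with filterByExpr, scaled with TMM and given the robust quasi-likelihood test of (TCF-1 cKO Post-Tx minus TCF-1 cKO Pre-Tx) minus (WT Post-Tx minus WT Pre-Tx), which is 2-sided. The design left 8 residual degrees of freedom, to which this test adds prior ones estimated over the genes. Benjamini-Hochberg adjustment ran over 21434 genes tested, and a gene was called at an adjusted p under 0.05. Standard errors are the size of the log2 value over the square root of F. The test was tried on simulated data with seeded log2 interactions. It recovered 3 of 50 of size 1, 18 of 50 of size 2 and 91 of 100 of size 4, and called 13 unchanged genes. An interaction of size 2 or less that did not pass need not be absent. Alternatives used limma 3.58.1 and DESeq2 1.42.0, other scalings, no filter, a replicate block, a receptor gene covariate and each library left out. Python 3.11.15 with numpy 2.4.6, pandas 2.3.3 and matplotlib 3.10.9 made tables and plots.

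Members, lists and the naming rule were chosen with earlier results of these data known. Named are Tcf7, the genes of the paper's RNA-seq section, the 10 largest called members in each direction, the 6 of smallest p in each direction and up to 4 called members of smallest p per list, passing over predicted genes. Some genes are not reported here. Cd8a, Cd79a, Cd3d, Cd3g, Hbb-bs, Siglech, Mrc1, Klrb1c, Pou2af1, Btk, Cd22, H2-Ab1, Cd6, Cd5, Cd247, Dapl1 and Tnfrsf10b were named after their values were seen. Intervals from counts cover counting error only. Levels of single genes are not compared with each other, since CPM do not correct for length, and the marker sums share this limit.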

Additional observations from a re-analysis of the deposited data

Results flagged for a closer look

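The change with transplant differed between the genotypes for 2994 members by edgeR's quasi-likelihood test of the interaction, and for each called gene that the text names, whose log2 interactions follow. Among those below 0 stood Mcoln3 -4.76, Klrc1 -3.85, Amd1 -3.83, Cnbd2 -3.71, Srp54b -3.71, Parp16 -3.69, Xcl1 -3.57, Ralgps1 -3.56, Mettl18 -3.54, Card6 -3.51, Cxcr5 -3.25, Btla -3.13, Cep85 -3.10, Cpsf2 -3.08, Chd9 -3.06 and Cd69 -3.04. Further ones were Itgb1 -3.00, Mrc1 -2.94, Miga1 -2.94, Casp1 -2.63, Gzma -2.58, Ccl4 -2.52, Irf4 -2.49, Klrb1c -2.40, Trim30a -2.37, Ifit3 -2.26, Serpinb6b -2.25, Btk -2.24, Prf1 -2.23, Pou2af1 -2.22, Zfp36l2 -2.22, Ets1 -2.21, Bcl6 -2.19, Ccr2 -2.19, Stat4 -2.18, Ctnnb1 -2.04, Slamf6 -2.03, Ccl5 -2.03 and Acly -2.01. Values between -2 and -1.5 were found for Jak1 -1.97, Hspa9 -1.97, Foxp1 -1.94, Nfkb1 -1.94, Cd200 -1.89, Casp8 -1.88, Nfkbiz -1.88, Hsp90aa1 -1.87, Slc16a1 -1.87, Birc3 -1.84, mt-Cytb -1.84, Aurkb -1.81, Scd2 -1.80, Csnk1a1 -1.79, Tnfsf8 -1.78, mt-Nd2 -1.76, Ifnar1 -1.74, Gbp7 -1.74, Cd28 -1.72, Dnajc3 -1.69, Ifngr1 -1.67, Bcl2a1b -1.66, Havcr2 -1.65, Klf6 -1.61, Btg2 -1.56, mt-Nd4 -1.53, Rpl21 -1.53, Rpl4 -1.50, Tnfaip3 -1.50 and Rpl7 -1.50. The smallest in size were Ifitm1 -1.49, Myc -1.48, Ikbkb -1.48, Cd22 -1.46, Mki67 -1.46, Bcl10 -1.45, Slamf1 -1.44, Uqcrc2 -1.42, Sdha -1.39, Mcm6 -1.39, Hsp90ab1 -1.38, Rpl30 -1.38, mt-Nd4l -1.37, Batf -1.30, Bhlhe40 -1.25, Cd2 -1.18, Uqcrfs1 -1.18, Ccnd2 -1.18, Cd27 -1.17, Atp5j -1.16, Pfkp -1.03, Il2rg -0.98 and Pdcd1 -0.89. Above 0 stood Sh3pxd2b 6.70, Gpr83 6.49, Zscan2 5.85, Ltbp2 5.79, Triml1 5.16, Syt17 5.16, Kcnma1 5.05, Lrrc3 5.01, Tmem179 4.90, Zfp488 4.89, Susd2 4.56, Siglech 4.45 and Slfn3 4.27. Others above 0 were Zfp697 3.73, Slit2 3.69, Wnt4 3.64, Mib1 3.64, Tmem72 3.53, Il4 3.46, Trat1 3.29, Gbp5 2.96, Tnfrsf10b 2.95, Igfbp4 2.78, Dapl1 2.36, Cd8a 2.24, Hbb-bs 2.21, Cd6 0.89 and H2-Ab1 0.85. No explanation was tested for any of them.

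Olfactory and vomeronasal receptor genes, which are no members and enter the report as a model term and beside the members, averaged 2233 CPM in TCF-1 cKO Pre-Tx, 8009 in WT Pre-Tx, 12605 in TCF-1 cKO Post-Tx and 3130.3 in WT Post-Tx, and of 980 tested 520 had an interaction above 0 and none below. The WT groups serve as controls here, and after transplant every TCF-1 cKO library was above every WT Post-Tx library.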

How the results depend on the processing

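The 2994 calls (557 above and 2437 below 0) were 1714 (988 and 726) with upper-quartile scaling, 1789 (990 and 799) with member scaling, 0 with the receptor covariate, 0 with it and member scaling, 19 (3 and 16) with it in DESeq2, and 1946 (126 above) at a member minimum of 50 CPM. Unadjusted, 745, 742 and 937 members of the 3 covariate fits were at p under 0.05. They stayed within 1.5 times with RLE or pan T cell scaling, no filter (3769), voom and limma (3248), DESeq2 (4068) and a minimum interaction of 1 (2868). Member scaling and the covariate fits with member scaling or DESeq2 were chosen after the data were seen.

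Leaving out 1 library gave 1669 to 3641 calls, 293 to 587 above and 1376 to 3054 below 0. The totals were 1669 without TCF-1 cKO Post-Tx replicate 2, the library with the most receptor CPM, and 1809 without WT Post-Tx replicate 3. Calls above 0 were 293 and 366 without these, and 354 without WT Pre-Tx replicate 1. The cause was not tested. Of 120 named genes called, 99 were called without each library, and 21 lost the call at least once, all of them without TCF-1 cKO Post-Tx replicate 2 (Slit2, Zscan2, Lrrc3, Mcoln3, Parp16, Pdcd1, Tnfsf8, Il4, Slamf1, Cd27, Ccnd2, Atp5j, Uqcrfs1, mt-Nd2, mt-Nd4, mt-Nd4l, Pfkp, H2-Ab1, Hbb-bs, Cd6 and Dapl1).

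The labels number replicates alike in each group, but residuals of same-numbered libraries correlated at -0.272 to 0.248, so the numbers were not taken as pairs. A replicate block gave 2539 calls (520 above, 2019 below). All named genes kept their direction under it, and Mcoln3, Pdcd1, Cd27, mt-Nd4, mt-Nd4l, Pfkp, Hbb-bs, Cd6 and Dapl1 lost their call.

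Named genes turned in sign as follows, on the log2 scale. With member scaling they were Jak3 0.13, Cd4 0.11 and Cd247 0.22, and with upper-quartile scaling Jak3 0.16, Cd4 0.14 and Cd247 0.25. With no filter they were Lck -0.096 and Cd3e -0.041. Leaving out 1 library gave -0.040 to 0.34 for Lck, -0.084 to 0.34 for Cd3e and -0.042 to 0.49 for Cd3d, lowest without WT Pre-Tx replicate 2 for Lck and replicate 3 for the others. With the covariate they were Wnt4 -0.65, Jak3 0.76, Cd4 0.97, Ccl3 0.43, Zscan2 -1.96, Lrrc3 -0.41, Cd27 0.11, Ccnd2 0.42, Atp5j 0.039, Pfkp 0.40, Cd3g 0.46, Cd247 1.11 and Tnfrsf10b -0.58. With covariate and member scaling they were Wnt4 -0.46, Jak3 0.93, Cd4 1.12, Ccl3 0.57, Cxcr3 0.016, Zscan2 -1.77, Lrrc3 -0.18, Cd27 0.29, Ccnd2 0.59, Atp5j 0.20, Uqcrfs1 0.051, Pfkp 0.55, Cd3g 0.63, Cd247 1.27 and Tnfrsf10b -0.40. With the covariate in DESeq2 they were Wnt4 -0.69, Jak3 0.72, Cd4 0.93, Ccl3 0.36, Zscan2 -1.98, Lrrc3 -0.52, Cd27 0.075, Ccnd2 0.37, Pfkp 0.36, Cd3g 0.43, Cd247 1.08 and Tnfrsf10b -0.62. Library totals of 17103415 or more counts limit mostly values near 0 CPM, as those of Il4, Gpr83 and Susd2 in TCF-1 cKO Pre-Tx.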
